A study of Mus musculus with 199 samples.

Results

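The windows described here were the 300 windows of 40 kb that multiplex-GAM libraries called positive most often, out of 61816 windows on mouse chromosomes 1 to 19. In genome architecture mapping (GAM), thin sections through nuclei are cut and the DNA in each nuclear profile is sequenced, so that a window counts as present when its sequence is found. All libraries here had failed the authors' quality control. The windows were chosen by their calls in 186 libraries whose titles give 4 nuclear profiles per cap (4NP), cut at 220 nm from 46C cells, a mouse embryonic stem cell line of the 129/Ola strain. For each window the number of 4NP libraries calling it was counted, and the 300 highest were taken, with ties broken by chromosome and position. They were compared with the other 61516 autosomal windows, with 11 water controls without cells and with a pair of human genomic DNA controls (5 ng each).

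The 4NP libraries fell into 11 experiments, of which 1 was titled full collection (34 libraries). The others tested crystal violet (16 libraries against 5 unstained, in an experiment whose title names cresyl violet, another stain), SYBR Gold (15 titled stained, 3 titled unstained), eosin in ethanol or in water (8 each, and 1 unstained), propidium iodide (PI) with or without freezing (21 each, and 1 unstained), proteinase K volume (in libraries titled mdc or csc, which the labels do not explain), freezing times, reagent volumes, kit size and PCR cycles. The labels name 1 whole genome amplification kit for all libraries, in a large or a small size where kit size was tested. Titles give wells but no replicate numbers, so replicates are numbered here by the order of samples within each group. The calls carry no read depth. A 4NP library called between 1 and 17643 autosomal windows, with a median coverage of 2.51%, and 71 libraries called fewer than 1%. In 2 water controls, replicate 4 of the full collection and the control titled unstained in the SYBR Gold test, coverage was 22.6% and 20.4%, whereas the other 9 stayed at or below 0.492%. The calls cannot settle whether these 2 libraries are water controls as labelled, so a call in them need not mean a call without cells. Results that use water controls are given with and without them. Calls of DNA cannot check the labelled cell type.

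A call in GAM asks only whether enough reads map to a window. Sequences that occur in many near-identical copies, such as the satellite DNA of pericentromeric heterochromatin or the ribosomal RNA genes, are collapsed to few copies in a reference assembly. Reads from copies that the assembly lacks then align to the copies that it holds. Whole genome amplification of very small inputs is also known to carry traces of foreign DNA in its reagents. Both are stated as background, and neither was tested as a cause here.

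A repeat shared by 5 of the members is named here mouse major satellite, the A and T rich repeat of pericentromeric heterochromatin. This name and those of the ribosomal and TTCCA sequences below are background knowledge, since the words searched came from the member windows or the repeat unit and no reference repeat was compared. The stretches below are shown because they come from 5 windows on 4 chromosomes and were found by 1 search. Words of 24 bases that occurred at least 20 times in the window chr9:3000001-3040000 were looked up on both strands, and 10 of all autosomal windows held at least 20 positions with such a word. Of these windows 5 were members, called in 139, 93, 79, 54 and 35 of the 4NP libraries, while the other 5 were called in at most 14. Capitals mark the 32 bases that were the longest stretch common to the 5 members (mm9). The first stretch is on the plus strand of chr9:3000023-3000154, the second on the plus strand of chr2:98502413-98502544, the next on the minus strand of chr9:35112897-35113028, the next on the plus strand of chr11:3003889-3004020 and the last on the minus strand of chr12:3109935-3110066.
Window called by 93 libraries: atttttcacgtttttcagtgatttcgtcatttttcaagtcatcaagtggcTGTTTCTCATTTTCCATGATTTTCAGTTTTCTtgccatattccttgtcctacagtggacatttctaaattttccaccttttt
Window called by 139 libraries: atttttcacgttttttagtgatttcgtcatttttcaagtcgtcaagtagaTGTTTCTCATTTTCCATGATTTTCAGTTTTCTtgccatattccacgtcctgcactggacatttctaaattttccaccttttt
Window called by 79 libraries: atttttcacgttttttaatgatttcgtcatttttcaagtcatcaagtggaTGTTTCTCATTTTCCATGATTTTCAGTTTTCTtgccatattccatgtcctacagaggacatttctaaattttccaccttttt
Window called by 54 libraries: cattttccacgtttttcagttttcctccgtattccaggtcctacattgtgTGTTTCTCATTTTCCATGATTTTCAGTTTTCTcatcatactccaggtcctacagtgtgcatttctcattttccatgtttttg
Window called by 35 libraries: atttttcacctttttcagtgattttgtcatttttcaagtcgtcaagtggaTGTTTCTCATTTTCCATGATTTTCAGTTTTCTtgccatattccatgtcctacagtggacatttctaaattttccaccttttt

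Without gaps, the stretches on chromosome 2, further along chromosome 9 and on chromosome 12 were 93.9%, 96.2% and 96.2% identical to the first, and that on chromosome 11 was 68.9% identical. The chromosome 2 stretch lies in coding sequence annotated to Gm10801, a predicted gene, and the other 4 stretches lie in no annotated gene. Satellite words stood at 20059 positions of the window at the start of chromosome 9, and at 542, 158, 151 and 78 positions of the others.

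The highest member, on chromosome 2, also shared sequence with the Chl1 window on chromosome 6, ranked 3, which held none of the satellite words at the level above. The 77 bases in capitals were identical in both windows and are shown with 20 bases on either side, from the plus strands of chr2:98506436-98506552, in no annotated gene, and chr6:103599177-103599293, in an intron of Chl1, a neural cell adhesion molecule gene.
Chromosome 2: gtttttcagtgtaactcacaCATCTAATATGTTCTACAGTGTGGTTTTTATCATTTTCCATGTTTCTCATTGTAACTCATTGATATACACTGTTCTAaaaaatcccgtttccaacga
Chromosome 6: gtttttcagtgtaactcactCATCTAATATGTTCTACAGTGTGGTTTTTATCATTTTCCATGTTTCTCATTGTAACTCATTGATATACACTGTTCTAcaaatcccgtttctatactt

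Another shared sequence joined 3 members on chromosomes 9, 16 and 6, called by 43, 40 and 36 libraries. A stretch of 371 bases in the window of Lars2, the mitochondrial leucyl-tRNA synthetase gene, at chr9:123370930-123371300 in its annotated UTR, shared runs with the window of Gm15564 and Kpna1 and with that of Igf2bp3 and Tra2a. These runs are taken, as background, to be sequence of the large subunit ribosomal RNA. Of the 61816 windows 12 held at least 20 positions with a 24-base word of that stretch, and the 9 that were not members were called in at most 12 libraries. The stretch was bounded by words that the Lars2 window shared with the other windows named, so finding these 3 members was fixed in advance. The first 30 bases of each run are shown, from the minus strand of chr16:35981878-35981907, in an exon of Gm15564, where the run with chromosome 9 was 77 bases long, and of chr6:49186587-49186616, between genes, where it was 66 bases long.
Chromosome 16: CGGCTCTTCCTATCATTGTGAAGCAGAATT
Chromosome 6: TCAGGGAGGACAGAAACCTCCCGTGGAGCA

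A further family was a simple repeat of the unit TTCCA, known from the classical satellites of human chromosomes. A run of 40 bases, in capitals with 20 bases on either side, lay on the plus strand of chr17:4626296-4626375, in no annotated gene, in a member called by 45 libraries. Words of 24 bases from TTCCA repeats, searched on both strands, filled at least 20 positions in 25 autosomal windows, 2 of them members. The second was chr1:12600001-12640000, called by 32 libraries. The 23 others were called in at most 15. The windows with these words were 0.667% of members and 0.0374% of other windows. The repeat was chosen for the search after the values were seen, so these shares are a description.
Chromosome 17: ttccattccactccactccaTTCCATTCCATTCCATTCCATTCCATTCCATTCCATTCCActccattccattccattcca

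Repeats that are dispersed over the genome were described by words of 32 bases sampled every 200 bases. Words with at least 100 copies made up a median of 3.5% (quartiles 2% and 5.5%) in members and of 4.5% (2% and 10%) in other windows, and 5.5% (2.88% and 7.62%) in the 20 highest. In the members ranked 2 and 3 the sampled 32-base word with the most copies had 16076 and 19833 copies in the genome. Both stretches belong to 1 repeat, since the word of the chromosome 17 window also stands in the chromosome 6 stretch. The 92 bases around each word, which is in capitals, are shown from the plus strands of chr17:39995171-39995262, in no annotated gene, and chr6:103598771-103598862, in an intron of Chl1.
Chromosome 17: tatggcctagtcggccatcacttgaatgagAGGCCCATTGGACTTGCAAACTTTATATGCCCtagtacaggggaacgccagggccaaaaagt
Chromosome 6: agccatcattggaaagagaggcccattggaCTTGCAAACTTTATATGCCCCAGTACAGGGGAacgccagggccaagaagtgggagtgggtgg

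The calls behind the choice of members had a long upper tail. The median window was called by 21 4NP libraries among members and by 9 among other windows, whose quartiles were 7 and 11. Only 37 members were called by 30 or more libraries and 31 by 24 to 29, which left 232 between 19 and 23. The threshold cut through a tie: 179 windows were called by 19 libraries and 38 of them entered by position, while 141 with the same count did not. A further 327 windows were called by 18. These values chose the members and are given as a description. Members made up 0.485% of the autosomal windows and held 1.35% of their 4NP calls.

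**Figure D1:**
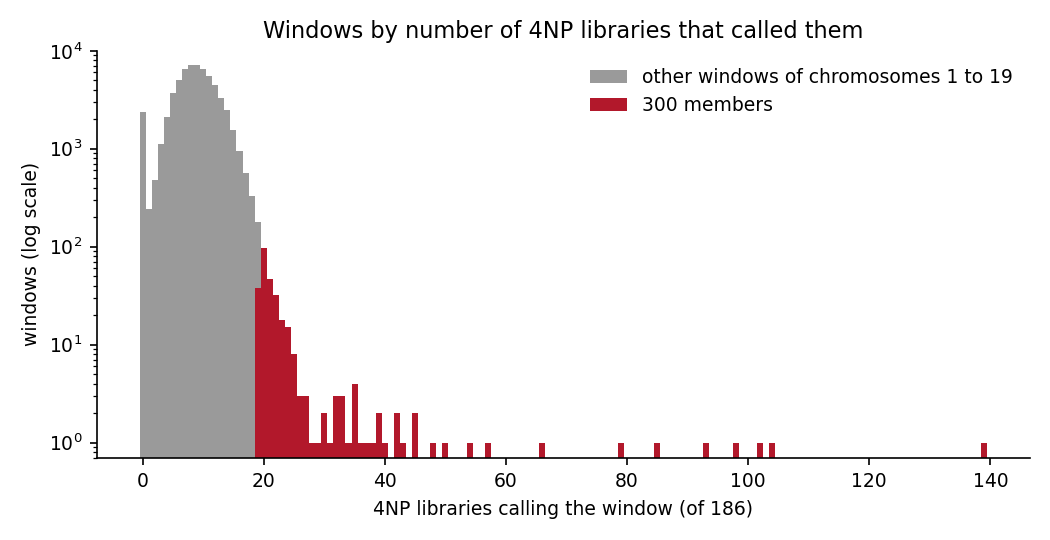
The number of autosomal windows (y axis, log scale) is plotted against the number of 4NP libraries that called them (x axis, of 186), with members in red and other windows in grey. Most members sit directly above the bulk of the windows, at 19 to 23 libraries, and the highest lies at 139.

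The highest member was chr2:98480001-98520000, which overlaps the predicted genes Gm10800 and Gm10801 and was called by 139 of 186 libraries (74.7%). Chromosome 17 at 39960001-40000000, with AY036118, followed with 104 libraries, and the window chr6:103560001-103600000 in Chl1 with 102. The 3 adjoining windows from chr11:3000001 to 3120000 were called by 54, 98 and 85 libraries. They overlap Sfi1, which encodes a centrin-binding protein of centrosomes, and the last also Drg1, a GTP-binding protein gene, and Eif4enif1, which encodes a transporter of translation initiation factor eIF4E. The satellite window at the start of chromosome 9 was called by 93 libraries and chr9:35080001-35120000, with the pseudouridine synthase gene Rpusd4 and Gm5614, by 79. The window chr10:128120001-128160000 holds Cdk2, a cell cycle kinase gene, Dgka, Pmel and Rab5b, and was called by 66. The window chr2:125960001-126000000, with Dtwd1 and 4930525F21Rik, was called by 50. Of the 20 highest members, 8 were called in all 11 experiments.

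Several of the lower ranks of the 20 highest lay near each other. On chromosome 8 the windows of Gm15319 at 19920001-19960000 and of 2610005L07Rik at 19960001-20000000 were called by 57 and 48 libraries. On chromosome 4 those of Gm13145, Gm13141 and Gm13227 were called by 42, 42 and 39. The windows chr15:74880001-74920000 and chr2:181640001-181680000, with no annotated gene, were called by 45 and 39. The latter lies 0.0681 Mb from the end of its chromosome. Below rank 20, the next were Gm13245 on chromosome 4 with 38 libraries and Gm13225 with 37. Windows of Mll3, a histone methyltransferase gene, at chr5:24840001-24880000 and of Fbxw4, an F-box protein gene, at chr19:45720001-45760000 were both called by 32.

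Among the 20 highest, windows differed in which libraries called them. Each of the windows on chromosome 2 at 98480001, in Chl1, of Gm11399 and Gm11400 at chr11:3040001-3080000, at the start of chromosome 9 and of Rpusd4 was called in 34 of the 34 libraries with coverage over 10%. In the 71 libraries under 1% they were called in 24, 5, 4, 4 and 3. The Dtwd1 window was called most often in libraries under 1% and least often in the middle class, with 31 of 71 libraries under 1%, 8 of 81 from 1 to 10% and 11 of 34 over 10%. Calls of the TTCCA window on chromosome 17 came from 22, 13 and 10 of those libraries, and those of the AY036118 window from 32, 44 and 28. The windows on chromosome 4 between 145000001 and 146920000 that were among the 20 highest had at most 2 calls in libraries under 1%.

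As a group, the 20 highest members were called at 12.7% in libraries under 1% coverage, where regional members were called at 1.39% and windows outside the list at 0.274%. In libraries from 1 to 10% the levels were 41.8%, 11.7% and 4.73%. In libraries over 10% they were 66.5%, 29.9% and 14%. All members together were called at 2.45%, 14.3% and 33.6% in these classes, which was 8.93, 3.03 and 2.39 times the level of other windows. These levels come from the libraries that chose the members, and no test was made.

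**Figure D2:**
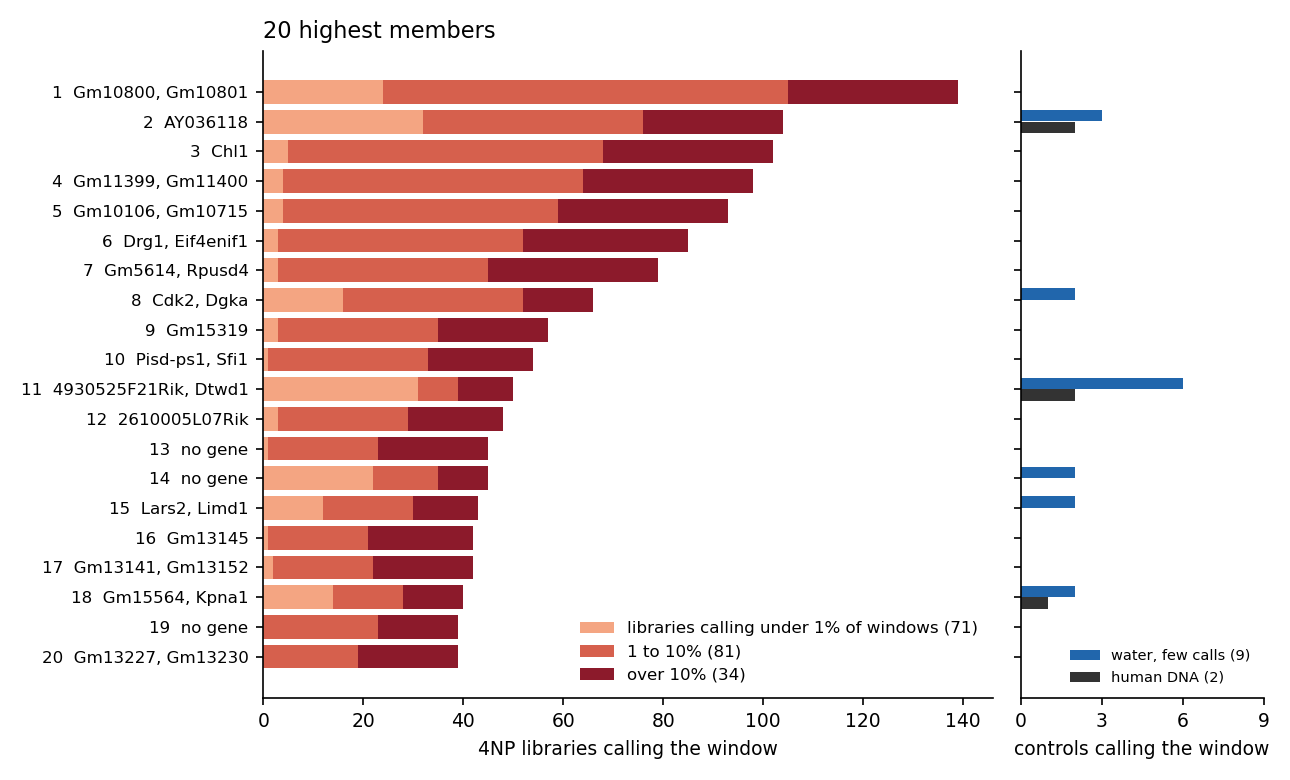
For the 20 highest members, named by rank and the first genes whose exons they overlap, bars on the left give the number of 4NP libraries calling the window, split by the coverage of the library. Bars on the right give the number of the 9 water controls with few calls and of the 2 human DNA controls that called it. The Dtwd1 window at rank 11 has the most control calls, 6 water and 2 human DNA.

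The same windows also differed within the crystal violet experiment, whose stained libraries had a mean coverage of 0.568% against 8.24% in unstained ones. All 16 crystal violet and all 5 unstained libraries called the AY036118 window. The Dtwd1, Cdk2 and TTCCA windows were each called in 12 of 16 crystal violet libraries, and in 4, 4 and 3 of 5 unstained ones. In contrast, 0 of 16 crystal violet libraries, which allows a share of up to 18.8%, called the satellite window at the start of chromosome 9, the Rpusd4 window or any of the 3 windows of chromosome 11. Unstained libraries called these in 4, 3, 1, 3 and 3 of 5. In the full collection the Dtwd1 window was called in 20 of 34 libraries, more than the 10 of 34 of the chromosome 2 window at 98480001. These are counts within experiments that took part in choosing the members, and no test was made.

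Members were divided by their surroundings. A member was called isolated where its 4NP count was at least 2 times the median of those of the 5 windows on each side that were not members, and regional otherwise. There were 97 isolated and 203 regional members. Since other members were left out of the surroundings, an isolated member can adjoin another, as the 3 windows of chromosome 11 do. Isolated members had a median count of 25, and regional ones of 20, at most 25. For 8 isolated members the surrounding median was 0. Undetermined windows were not left out of the surroundings and can lower this median, so a member beside unassembled sequence can count as isolated. In 1 region of chromosome 1, chr1:85080001-85120000 was regional and chr1:85280001-85320000 isolated. Both were called by 23 libraries, with surrounding medians of 14.5 and 0. The 300 members formed 221 regions when members with at most 5 windows between them were joined, 178 of them a single window. Regions of 5 or more members numbered 4 and held 28 members.

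The largest region was chr4:146600001-147160000, with 9 members, 8 of them isolated by the rule above, called by 20 to 42 libraries over predicted genes such as Gm13145, Gm13152 and Gm13157. The region chr8:19680001-20040000 held 7 members, all 7 isolated by that rule and called by 30 to 57, over 2610005L07Rik, 4930467E23Rik and Gm15319. Some of its windows resembled each other. The pair chr8:19920001-19960000 and chr8:19720001-19760000 shared the most, 22474 words of 24 bases, 61.7% of those of the smaller set. Other pairs shared less, such as 55.7% for chr8:20000001-20040000 and chr8:19760001-19800000. The share was 3.01% for chr8:19720001-19760000 and chr8:19760001-19800000. Another 7 members lay in chr17:30600001-31000000, over Btbd9, the axonemal dynein gene Dnahc8 and Glo1, which encodes glyoxalase 1. They were called by 21 to 25 libraries and their median share of repeated words was 8%. The fourth region, chr2:121400001-121760000 over Casc4 and Frmd5, held 5 members, all called by 19. All members called by 19 entered by position, so this region stands only through the tie rule.

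Whether windows chosen in 4NP libraries were also called where the labels give no mouse profile was asked in the water controls, which the choice did not use. On average 6.97% ± 12.6 (SD, n = 11) of members and 4.02% ± 8.63 of other windows were called. The difference of 2.95 percentage points ± 4.22 was positive in 11 of 11 controls, with p = 0.000977 in an exact two-sided permutation test that swaps the sign of each library's difference, the smallest p that 11 libraries allow. Without the pair of controls over 10% it was 1.26 points, with 1.41% of members and 0.145% of other windows called, positive in 9 of 9 (exact permutation p = 0.00391). Without replicate 4 of the full collection alone it was 1.87 points.

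In single controls the counts of members were small. In the 9 controls with few calls between 1 and 15 of the 300 members were called. Replicate 6 of the full collection called the 15, which is 5% (Wilson 95% interval 3.05% to 8.08%), against 0.470% of other windows. The crystal violet experiment's control called 8 members, or 2.67% (1.36% to 5.17%), against 0.280%. Replicate 4 of the full collection called 109 members, or 36.3% (31.1% to 41.9%), against 22.5%, and the SYBR Gold control titled unstained called 83, or 27.7% (22.9% to 33%), against 20.4%. Intervals cover counting error only.

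**Figure D3:**
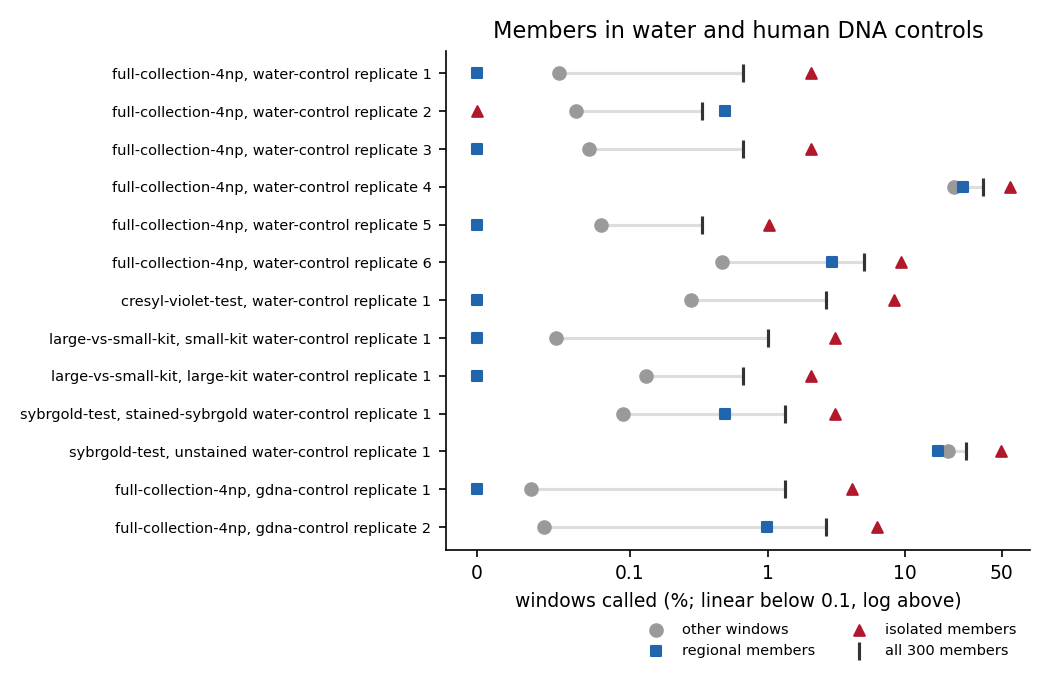
For each water control and each human DNA control (gdna-control), points give the percent of windows called (x axis, linear below 0.1 and logarithmic above) among other windows (grey circles), regional members (blue squares), isolated members (red triangles) and all members (black bars). All members lie to the right of other windows in each of the 13 controls, by far the least in the pair of water controls with over 20% of windows called.

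Isolated members accounted for most of this. In the 9 water controls with few calls, isolated members were called 30 times and regional members 8 times, 6 of those in replicate 6 of the full collection. Over the 11 controls 12.6% ± 20.6 of isolated and 4.30% ± 8.86 of regional members were called, a difference of 8.26 points ± 11.9 that was positive in 10 of 11 controls (exact two-sided permutation p = 0.00195). Without the pair over 10% the difference was 3.00 points, positive in 8 of 9 (exact permutation p = 0.00781). Regional members alone were not distinguished from other windows in the water controls, with 0.281 points between them, positive in 4 of 11 (exact permutation p = 0.615). In the pair of controls with many calls 21.7% of regional members and 21.4% of other windows were called. In the other 9 the shares were 0.438% and 0.145%, a fold of 3.03 that rests on the 8 calls above (difference 0.293 points, exact permutation p = 0.434).

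Counted by window, 163 members were called in at least 1 of the 11 water controls, or 54.3%, where the background over all autosomal windows was 38.6%. At least 2 water controls called 55 members (18.3%, background 5.66%). With only the 9 controls with few calls, 25 members were called at least once (8.33%, background 1.29%) and 8 at least 2 times (2.67%, background 0.055%). These 8 were all isolated, and made up 23.5% of the 34 such windows. They were called in 6 to 32 of the 71 4NP libraries under 1% coverage, with a median of 15. The median was 3 for the 17 members called by a single one of these controls and 1 for the 275 called by none. For the 26 other windows called by at least 2 of these controls it was 1.5, with a range from 0 to 5. Members were chosen by 4NP counts that include these libraries, so this is a description.

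The windows with the most control calls were the Dtwd1 window, in 7 of 11 water controls and 6 of the 9 with few calls, and the AY036118 window, in 5 and 3. The Cdk2 window was called in 3 and 2. The windows of TTCCA on chromosome 17, Lars2, Gm15564 and of Cdc27, a subunit gene of the anaphase-promoting complex, were each called in 2 controls with few calls, as was chr13:71720001-71760000, with no annotated gene. In comparison, the satellite window at the start of chromosome 9, the chromosome 2 window at 98480001, the Chl1 window and the 3 windows of chromosome 11 were called in both water controls with many calls and in 0 of the other 9, which allows a share of up to 33.3%. Members called in 3 water controls but with at most 1 call among the 9 were those of Nrxn3, a synaptic adhesion gene, of Ccnt2 and Ysk4, and of Atxn7l1 and Efcab10.

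By their labels, the human DNA controls held human DNA and no mouse profiles. They called 26 and 35 autosomal windows, of which 4 and 8 were members. That is 1.33% (Wilson 95% interval 0.520% to 3.38%) and 2.67% (1.36% to 5.17%) of members, against 0.0358% and 0.0439% of other windows. No test was made with 2 libraries. In all, 9 members were called in at least 1 human DNA control (3%, background 0.0922%), 7 of them isolated. Both controls called the AY036118, the Dtwd1 and the chr6:131320001-131360000 windows, the last with Csda, a cold shock domain protein gene, and SNORA70, a small nucleolar RNA gene. Among all other autosomal windows 1 was called in both, chr2:16600001-16640000. The remaining 6 members were called once. They were the windows of Gm15564, of Cdc27, of Gm11668, of the TTCCA repeat at chr1:12600001-12640000, of Smg1, a kinase gene of nonsense-mediated decay, and of Srsf10, a splicing factor gene, with Pnrc2 and Gm13000.

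Because counts chose the members, recurrence was measured in libraries that did not choose them. A list of 300 windows chosen over the 4NP libraries of the 10 test experiments shared 257 windows (85.7%) with the members, which were chosen over the same libraries and the full collection. In the 34 full collection libraries 3.56% ± 7.05 (SD) of this list and 1.20% ± 3.18 of other windows were called. The difference of 2.35 points ± 3.98 was positive in 30 of 34 libraries (two-sided sign-swap permutation p = 1e-05, the smallest that 100000 resamples can give). Its isolated windows were called at 6.03% and its regional ones at 2.32%. With regional windows alone the difference was 1.12 points, positive in 11 of 34 libraries (permutation p = 0.00252).

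In the reverse direction, a list chosen over the 34 full collection libraries shared 39 windows (13%) with the members. The lowest count in it was 3. It shared 26 windows (8.67%) with the list from the test experiments, with which it has no library in common, where each list held 0.485% of autosomal windows. In the libraries of the test experiments 8.86% ± 7.06 of this list and 5.55% ± 5.46 of other windows were called. The difference of 3.31 points ± 2.52 was positive in 141 libraries and not in 11 (permutation p = 1e-05). With its regional windows alone the difference was 1.36 points, positive in 71 libraries (permutation p = 0.00159).

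When each experiment in turn was left out of the choice, the list was called more often than other windows in 11 of 11 experiments, and in 176 of the 186 libraries. The fold between the list and other windows ran from 1.73 in the proteinase K titration to 3.19 in the test of reagent volumes. For regional windows of the list it ran from 1.15 in the eosin test to 2.01 in the test of PCR cycles. These lists were chosen without the experiment measured, but share most libraries with each other, so no test was made across experiments.

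**Figure D4:**
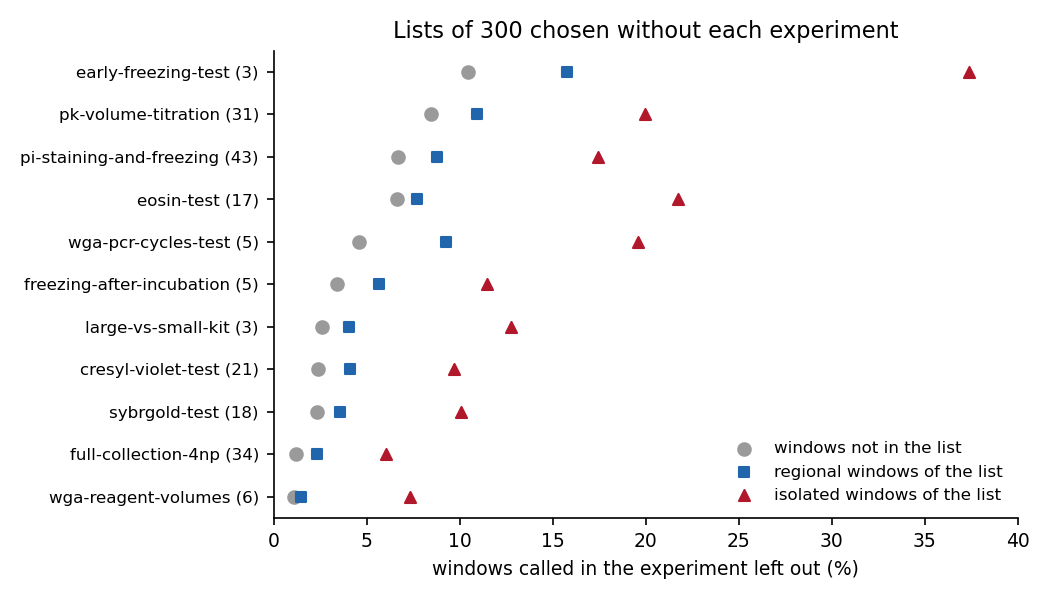
For each experiment (number of 4NP libraries in parentheses), points give the percent of windows called in it (x axis) for a list of 300 chosen over the other 10 experiments, split into isolated (red triangles) and regional windows (blue squares), and for windows outside the list (grey circles). Isolated windows lie farthest right in each experiment, from 6.03% in the full collection to 37.4% in the early freezing test.

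Groups of the same experiment were compared by the share of a library's calls that fell in a list chosen over the other experiments, for libraries with at least 20 calls. All of these libraries had failed quality control. Each group thus holds only the failed wells of its condition, and any wells that passed are missing, possibly unequally between groups. Of 8 comparisons 1 had an adjusted p below 0.05. Libraries with crystal violet, a basic dye, had shares from 1.92% to 5.30% with a median of 2.87%, and unstained ones from 0.523% to 1.52% with a median of 0.937%, so the groups did not overlap. On average the list took 3.11% ± 0.872 (SD, n = 16) of the calls of crystal violet libraries and 0.964% ± 0.364 (n = 5) of those of unstained ones. The difference was 2.15 points and was positive in 80 of 80 pairs (exact two-sided permutation p = 4.91e-05, Benjamini-Hochberg adjusted p = 0.000393). A higher share is not a higher rate of calls, since crystal violet libraries called 5.125% of members and unstained ones 19.2%, and other windows at 0.545% and 8.18%. Coverage thus differed in the same comparison, and its part in the result was not tested. With regional windows alone the difference was 0.653 points and missed the threshold after adjustment (exact permutation p = 0.0182, adjusted 0.146). The groups shared no plate column, so that column and stain cannot be told apart.

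The other 7 comparisons had adjusted p between 0.347 and 0.997, and no plate column was shared in 6 of them. Between SYBR Gold libraries titled stained and unstained the share was 1.25% ± 0.618 (n = 14) and 1.58% ± 1.02 (n = 2). The order of these means turned when unstained replicate 2 was left out. The share was 0.894% ± 0.183 for eosin in ethanol and 0.922% ± 0.148 for eosin in water (n = 8 each), and 1.08% ± 0.822 (n = 19) for PI and 1.31% ± 0.832 (n = 21) for PI with freezing. At 3, 4 and 8 µl of proteinase K it was 1.17% ± 1.02 (n = 7), 0.866% ± 0.208 (n = 7) and 1.16% ± 0.378 (n = 6). Replicate 1 at 3 µl, with 3.478%, decided the order of these means, since without it the mean at 3 µl minus that at 4 µl was -0.0753 points and minus that at 8 µl was -0.371 points (exact permutation p = 0.507 and 0.0238, adjusted 0.677 and 0.0952). In the full collection it was 4.24% ± 3.09 in 4NP libraries (n = 30) and 3.06% ± 1.96 in water controls (n = 6), a difference of 1.18 points that was 0.738 points without water replicate 4 (exact permutation p = 0.615). It turned to -0.989 points among libraries with at least 100 calls and to -0.347 points with regional windows alone. Within the 6 plate columns that held both kinds, with 20 4NP libraries, it was 1.91 points (exact permutation p = 0.106, adjusted 0.283).

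Repeated sequence was described with words of 32 bases sampled every 200 bases and counted over the whole assembly. In the median isolated member 26.5% of words occurred more than once (quartiles 6.5% and 63.5%), against 8% (5% and 11%) in regional members and 10% (5.5% and 20%) in other windows. More than 50% of the words were repeated in 35 of 97 isolated members (36.1%), in 4 of 203 regional ones (1.97%) and in 3.81% of other windows. Words found elsewhere did not fill all of the highest members. In the windows of Rpusd4, Chl1 and Cdk2, 4.5%, 5% and 8.5% of words were repeated, below the median of other windows, whereas the share was 92% in the satellite window at the start of chromosome 9. Of all 32-base words of that window, not only the sampled ones, 88.8% were repeated within the window itself. A 32-base word of the mitochondrial genome, searched among all words of a window, was found in 0 members and in 0.0601% of other windows. That share is too low for 300 windows to show a difference.

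**Figure D5:**
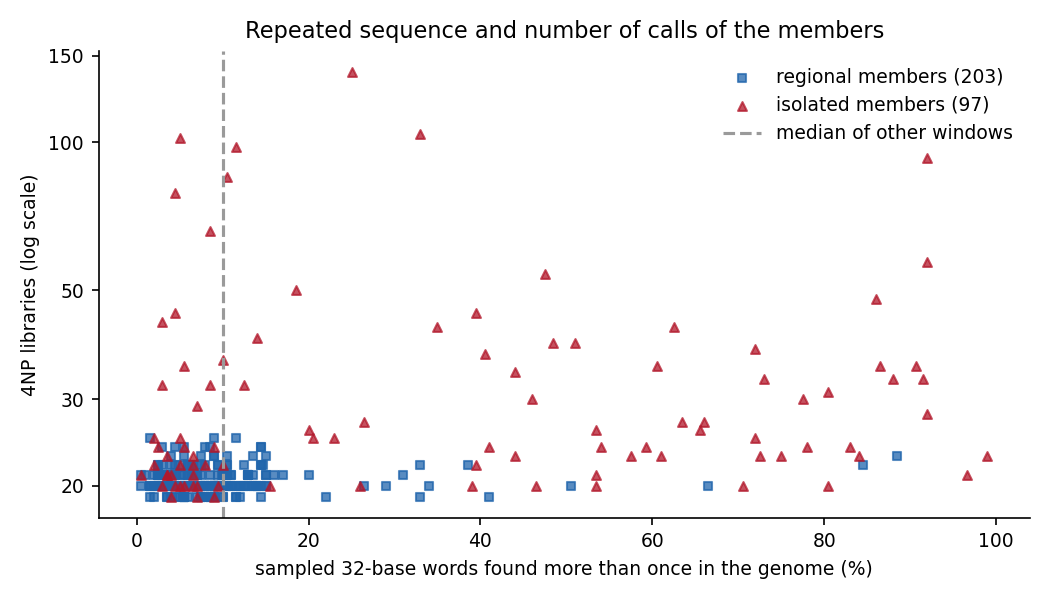
Each member is placed by the percent of its sampled 32-base words that occur more than once in the genome (x axis) and by the number of 4NP libraries that called it (y axis, log scale), with isolated members as red triangles and regional members as blue squares. The dashed line is the median of other windows, 10%. Most regional members lie below 20% and none lies above 25 libraries, whereas isolated members spread over both axes.

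Regional members differed from isolated ones in base composition and gene content. Their median GC content was 44.5% (SD 3.29), against 41.5% (SD 3.58) in isolated members and 41.4% (SD 4.07) in other windows. The median ratio of observed to expected CpG was 0.230 in regional members, 0.175 in isolated members and 0.179 in other windows. A protein-coding gene overlapped 180 of 203 regional members (88.7%), 58 of 97 isolated members (59.8%) and 53.8% of other windows. Long noncoding transcripts (lincRNA or processed transcript) overlapped 22.7% of members and 7.69% of other windows, pseudogenes 12.3% and 5.81%. No annotated gene lay in 11% of members and in 39.5% of other windows. These are descriptions of windows that are not independent of each other, and no test was made.

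By chromosome, the counts of members depend on the tie rule, since all 38 members called by 19 libraries lay on chromosomes 1 (18), 2 (16) and 3 (4). Without them chromosome 4 held 39 members, chromosome 11 held 29, chromosome 1 held 27 and chromosome 8 held 25, while chromosome 7 held 3 and chromosome 19 held 2. As a share of windows this was 1% on chromosome 4, 0.952% on chromosome 11, 0.548% on chromosome 1 and 0.0787% on chromosome 7. The first 4 Mb of chromosomes, next to the centromere and mostly undetermined in the assembly, held 8 isolated members (8.25%) and 0 of 203 regional members, which allows a share of up to 1.48%. Among other windows with at most 50% of their bases undetermined the share was 0.781%. The rule for isolated members kept undetermined windows in the surroundings, which can lower the surrounding median at chromosome starts. The split into isolated and regional members is thus partly set by the rule there.

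Gene lists took up few windows in all, so that their counts among members are small. Of 17 pluripotency genes in the annotation 1 lay in a member, Sox2, a transcription factor gene of the stem cell state, in chr3:34520001-34560000, called by 20 libraries and by 0 water controls. That was 0.333% of members, against 0.0390% of other windows. Housekeeping genes lay in 0 members and in 0.0179% of other windows, and histone (Hist) genes in 0 members and in 0.0293%. Olfactory receptor (Olfr) genes lay in 0 members and in 1.12% of other windows. Vomeronasal receptor genes (Vmn) overlapped 2 members, both through pseudogenes, a share of 0.667% that was near the 0.701% of other windows. Zinc finger genes named Zfp overlapped 3 members, with Zfp281, Zfp423 and Zfp868, or 1% against 0.873%. Hox genes overlapped 1, chr6:52120001-52160000 with Hoxa3 to Hoxa6, called by 21 libraries, or 0.333% against 0.0244%. Annotated ribosomal RNA genes overlapped 1 member, through a 5S_rRNA entry, against 0.419% of other windows. Small nuclear and nucleolar RNA genes overlapped 10 and 7 members (3.33% and 2.33%, against 2.06% and 1.85% of other windows), and microRNA genes 13 (4.33% against 1.90%).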

How the data were processed

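In the deposited table, libraries were columns and windows of 40 kb were rows, and a value of 1 marked a window called positive. Per the labels and the study's methods, the authors aligned reads to mm9 with Bowtie2 2.1, removed duplicates with Samtools and made calls in GAMtools where a window had 4 reads, so each deposited value is a call, not a count or a signal. Read totals were not used here, and the precision of a single library is given by Wilson intervals of window counts. Every one of the 199 columns matched 1 sample, and none was left unused.

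Rows of chromosomes 1 to 19 were ranked by the number of 4NP libraries with a call. The members and lists were chosen with earlier results of these data known. Named windows were the 20 highest, those called in at least 3 water controls, those called in a human DNA control and those in gene lists, and other windows named (ranks below 20, regions and chromosome 13 among them) were chosen after their values were seen. The searches for satellite, ribosomal and TTCCA words and the stretches printed from them were likewise chosen after the values were seen, except those around the most copied word. Gene names came from GENCODE M1, whose assembly (NCBIM37) had the chromosome lengths of the table. A share of windows called was compared between lists within each library with a sign-swap permutation test, exact below 20 libraries and otherwise with 100000 resamples. Groups of 1 experiment were compared with permutation tests, exact up to 5000000 regroupings, adjusted together over 8 comparisons at a threshold of 0.05. Replicates are wells, and nothing says that they came from separate cultures, so p-values measure the spread between wells. SYBR Gold groups follow the titles, which their protocols contradict. Alternatives were lists of 100 and 1000 windows, other tie and weighting rules, log2 ratios with 0.5 added, windows over 50% undetermined left out, other limits for isolated windows and for called windows, and single libraries left out. After the data were seen, lists of only regional or only isolated windows, comparisons within plate columns or rows and leaving out libraries of the groups of 7 were added. The tests were checked on simulated data. Python 3.11.15 with numpy 2.4.6, pandas 2.3.3, scipy 1.17.1, numba 0.67.0 and matplotlib 3.10.9 was used.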

Additional observations from a re-analysis of the deposited data

Results flagged for a closer look

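In 15 checks of groups of 4 to 10 libraries for a library that stood apart, 3 did, where chance gives about 1 in 20. Replicate 4 of the full collection water controls called 36.33% of the members, and the next of the 6 controls called 5%. In the proteinase K titration, replicate 1 at 3 µl had a list share of 3.478%, with the nearest of the 7 libraries at 0.985%. Replicate 1 at 4 µl had a list share of 1.287%, with the nearest at 0.8943%.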

How the results depend on the processing

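All 14 alternatives for isolated against regional members in water controls kept the direction and the side of the threshold, from 3.00 to 10.4 percentage points, as did the 6 and 5 alternatives of the lists measured in libraries that had not chosen them. For members against other windows in water controls 20 of 22 did. With regional windows alone the difference was 0.281 points, and 0.293 points without both controls over 10%, neither past the threshold. Leaving out single water controls, or both over 10%, gave 1.26 to 3.22 points. For crystal violet against unstained libraries 10 of 11 alternatives kept the call, and with regional windows alone the difference was 0.653 points and the call was lost.

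Comparisons of list share that had not passed changed sign as follows. With regional windows alone the difference was 0.310 points for SYBR Gold, 0.0177 for eosin in ethanol against water, -0.0148 for 3 against 8 µl of proteinase K and -0.347 for full collection 4NP against water. Libraries with at least 100 calls gave -0.989 for the last. Leaving out 1 water control gave 0.738 to 1.71 for it, lowest without replicate 4. Lists of 100 windows gave -0.0251 and log2 ratios gave -0.256 for 3 against 8 µl, and lists of 1000 windows gave 0.0130 for eosin. Leaving out 1 unstained library gave -1.06 to 0.387 for SYBR Gold, positive without replicate 2. Leaving out 1 library of either group gave -0.371 to 0.151 for 3 against 8 µl, negative without replicate 1 at 3 µl or replicates 3, 4 or 7 at 8 µl, and -0.0753 to 0.399 for 3 against 4 µl, negative without replicate 1 at 3 µl. The cause was not tested. No paired analysis was possible because the labels give no replicate numbers, and nothing says that a plate row marks a shared sample. Compared within plate rows that held both groups, no call changed in 7 of the 8 comparisons, with 2.21 points for crystal violet (exact permutation p = 0.00412, adjusted 0.033), and PI was not run so. For SYBR Gold these rows held 2 libraries against 1, with 3 arrangements, so its call could not change. For full collection 4NP against water they held 3 libraries against 6. Plate columns were shared by both groups only for full collection 4NP against water, where the difference within columns was 1.91 points and missed the threshold too. The calls hold no depth, which limits what a window without a call can show, and neighbouring windows are not independent.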

Other observations

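Outside chromosomes 1 to 19, 15 of 6346 windows were called by 19 or more of the 186 4NP libraries. The single window of the mitochondrial genome (16299 bases) was called by 131 libraries and by 3 of the 9 water controls with few calls. Chromosome X held 9 such windows, the highest called by 86 libraries, and chromosome Y held 5, the highest called by 68. The highest X and Y windows were called in 0 of the 9 controls, and in 0 of the 2 human DNA controls.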
